A study of Mus musculus with 6 samples.

Results

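The genes described here are 7 matrix metalloproteinases (MMPs) and 3 tissue inhibitors of metalloproteinases (TIMPs), namely Mmp8, Mmp9, Mmp12, Mmp13, Mmp14, Mmp19, Mmp25, Timp1, Timp2 and Timp3. They were taken by symbol, 10 of the 35275 genes in the deposited tables, and all 10 were abundant enough to be among the 13883 genes tested. The RNA came from myeloid cells of CT26 tumours (a mouse colon carcinoma line implanted under the skin of BALB/C mice), which were digested at 1800 mm3 and separated by flow cytometry. The 3 sorted populations were Ly6G-low cells that bound T1, Ly6G-high cells that bound T1 and Ly6G-high cells that did not bind T1, where Ly6G is a neutrophil surface antigen and T1 is an aptamer, a folded nucleic acid selected to attach to cells. Each population came from the same 2 mice, which gave 2 libraries a population and 6 in all, so a p-value here rests on libraries of only 2 animals. The labels call the Ly6G-high sorts polymorphonuclear and the Ly6G-low sort only a myeloid subset, and no other gate, genotype, age or drug is stated in the sources used here.

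MMPs are zinc-dependent proteases that cut collagens, elastin, gelatin and other matrix proteins, and most are made as inactive proenzymes that other proteases open. TIMPs bind the active site of MMPs and block them, and Timp2 also takes part in the activation of proMMP2 at the cell surface by the membrane protease encoded by Mmp14. Neutrophils are known to store Mmp8, Mmp9 and Mmp25 protein in granules, macrophages secrete Mmp12, and stromal cells are known sources of Timp1, Timp2 and Timp3.

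Library totals lay between 23595976 and 28045025 counts in genes. Levels are given as the deposited FPKM (counts over library total and gene length) where genes are set against each other, and as CPM (counts scaled by library size alone, here with the TMM factors of edgeR) where populations are compared. The summed CPM of 6 leukocyte markers was 959 and 1394 in Ly6G-low libraries, against 11038 and 7505 in T1-binding Ly6G-high and 15978 and 8610 in T1-non-binding Ly6G-high libraries (mouse 1, then mouse 2, as throughout). The 10 neutrophil markers summed to 226 and 88.7 CPM in Ly6G-low, 12657 and 8997 CPM in T1-binding Ly6G-high and 37481 and 24970 CPM in T1-non-binding Ly6G-high libraries. The Ly6G-low libraries thus had the lowest neutrophil and leukocyte marker sums of the 3 populations. No marker of either list was at 0 in both of them, but some rested on very few counts. Ly6g had 6 and 1 counts there, Camp 2 and 0, and Mpo 1 and 0.

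Of the 10 genes, 3 lie together on chromosome 9 of build mm10 in the GENCODE M21 annotation, with Mmp13 at chr9:7272514-7283331, Mmp12 at chr9:7344381-7369499 and Mmp8 at chr9:7558456-7568485, all on the + strand. Mmp9 lies at chr2:164940780-164955850, Mmp14 at chr14:54431612-54445364, Mmp19 at chr10:128790910-128800824 and Mmp25 at chr17:23628311-23645277. Timp1 lies at chrX:20870166-20874735, Timp2 at chr11:118301069-118355740 and Timp3 at chr10:86300372-86349506. All 10 are protein-coding. Exon bases are shared with genes on the opposite strand by Mmp12 (Mmp1b, which had 0 counts in every library), by Mmp19 (Gm47093 and Tmem198b) and by Timp3 (Syn3), so those 3 values are uncertain where counting ignored strand, which is not stated. RefSeq promoters on GRCm38.p6 were found for 8 of the 10 genes, and Mmp9 and Mmp19 had none in the table used. The 250 bases before the start are printed for Mmp13, Mmp12 and Mmp14, which with Mmp19 had their highest mean CPM in T1-binding Ly6G-high cells, for Mmp8, a neighbour with another pattern, and for Timp1, whose mean was highest in Ly6G-low cells, with capitals for AP-1 motif matches (TGANTCA).
Mmp13, chr9:7272264-7272513, + strand: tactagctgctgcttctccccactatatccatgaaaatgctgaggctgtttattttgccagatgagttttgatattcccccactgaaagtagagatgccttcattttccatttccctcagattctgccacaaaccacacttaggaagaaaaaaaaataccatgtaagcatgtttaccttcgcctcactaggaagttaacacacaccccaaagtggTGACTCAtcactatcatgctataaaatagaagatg
Mmp12, the second start, chr9:7347124-7347373, + strand: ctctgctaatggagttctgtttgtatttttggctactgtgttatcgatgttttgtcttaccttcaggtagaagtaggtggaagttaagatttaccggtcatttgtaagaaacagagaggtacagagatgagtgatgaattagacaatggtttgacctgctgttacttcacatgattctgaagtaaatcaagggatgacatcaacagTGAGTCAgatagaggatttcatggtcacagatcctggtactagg
Mmp14, chr14:54431348-54431597, + strand: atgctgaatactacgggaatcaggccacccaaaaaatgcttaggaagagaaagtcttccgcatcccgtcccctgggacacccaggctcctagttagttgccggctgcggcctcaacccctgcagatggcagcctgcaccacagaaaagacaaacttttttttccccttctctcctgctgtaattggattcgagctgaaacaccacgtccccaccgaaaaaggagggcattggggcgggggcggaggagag
Mmp8, chr9:7558179-7558428, + strand: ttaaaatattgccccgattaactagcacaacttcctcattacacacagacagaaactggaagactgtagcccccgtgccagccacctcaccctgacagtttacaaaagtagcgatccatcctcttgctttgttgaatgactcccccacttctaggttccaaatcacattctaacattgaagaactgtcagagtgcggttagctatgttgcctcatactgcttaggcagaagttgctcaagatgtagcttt
Timp1, chrX:20869916-20870165, + strand: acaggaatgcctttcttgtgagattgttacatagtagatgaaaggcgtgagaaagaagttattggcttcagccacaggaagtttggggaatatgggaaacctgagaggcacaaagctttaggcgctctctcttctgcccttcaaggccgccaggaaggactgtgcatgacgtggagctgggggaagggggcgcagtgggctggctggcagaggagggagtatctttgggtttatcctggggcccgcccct
The AP-1 letters stood 35 to 29 bases before the start of Mmp13 and 44 to 38 bases before the second RefSeq start of Mmp12, and the first Mmp12 start, at which the window begins at chr9:7344147, had none and is not printed because 16 of its bases overlap an annotated UTR. Mmp14, whose mean was also highest in T1-binding Ly6G-high cells, had no match, and no link between letters and levels was tested. Of the 9 windows of the 8 genes with a promoter, only those of Mmp13 and of the second Mmp12 start had a match. Of all 32851 RefSeq promoter windows of the same length, 6.75% had one, with both strands searched. A TATA box (TATAAA) lay 16 to 11 bases before the Mmp13 start and in no other of the 8 genes, and 12.4% of all windows held one. C/EBP letters (TTNNGNAA) occurred 2 times in Mmp8, 2 times at the first Mmp12 start and 1 time in Timp1, with 36.8% of all windows holding a match. GC boxes (GGGCGG) occurred in Mmp14, Mmp25, Timp1, Timp2 and Timp3 and in 32.7% of all windows. No match overlapped one of another motif, and a match describes letters and not a bound site.

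The make-up of the family differed between the populations. Timp1 was its most abundant transcript per length in both Ly6G-low libraries, and also in the mouse 2 library of each Ly6G-high population. In the mouse 1 libraries Mmp12 was highest in T1-binding Ly6G-high (443 FPKM) and Mmp9 in T1-non-binding Ly6G-high cells (340 FPKM). Timp1 stood at 1313 and 982 FPKM in Ly6G-low, 184 and 302 FPKM in T1-binding Ly6G-high and 198 and 408 FPKM in T1-non-binding Ly6G-high libraries. Both Ly6G-low libraries lay above all 4 others. Timp2 followed at 238 and 217 FPKM in Ly6G-low, 138 and 141 FPKM in T1-binding Ly6G-high and 110.3 and 138 FPKM in T1-non-binding Ly6G-high libraries. Timp3, which encodes a TIMP that stays bound to the matrix, was scarce, between 0.0913 and 1.01 FPKM over the 6 libraries. Among the MMPs, Mmp12 had the highest FPKM in the Ly6G-low population (102 ± 4.24) and in the T1-binding Ly6G-high population (336 ± 152), and Mmp9 had the highest in the T1-non-binding Ly6G-high population (290.0 ± 70.5; SD, n = 2 each). The lowest MMP in all 6 libraries was Mmp25, between 0.490 and 9.46 FPKM.

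**Figure D1:**
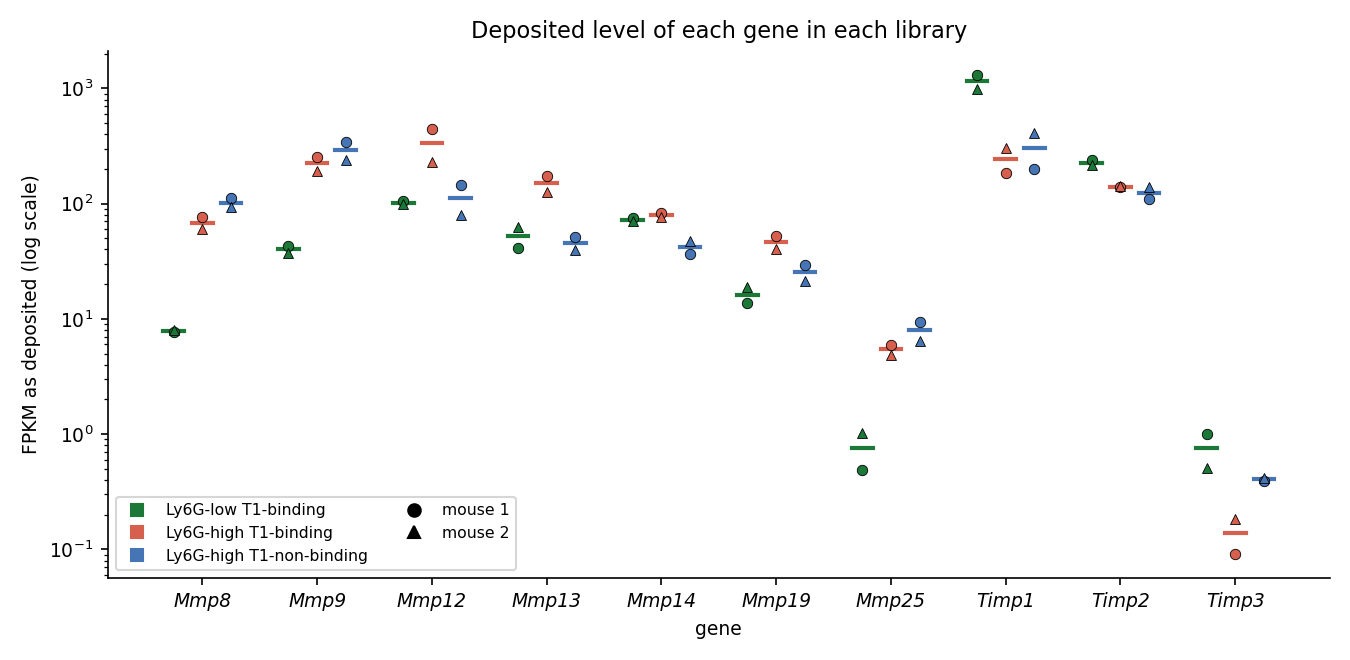
Deposited FPKM on a log axis for each of the 10 genes, in Ly6G-low T1-binding, Ly6G-high T1-binding and Ly6G-high T1-non-binding cells from left to right, with circles for mouse 1, triangles for mouse 2 and lines for the mean of 2 libraries. Timp1 reached 1313 and 982 FPKM in Ly6G-low libraries, while Mmp8, Mmp9 and Mmp25 were lowest there.

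As a share of the summed FPKM of the 7 MMP genes, the granule proteases Mmp8, Mmp9 and Mmp25 together made up 17.9% and 15.5% in Ly6G-low, 31.0% and 35.2% in T1-binding Ly6G-high and 63.6% and 64.4% in T1-non-binding Ly6G-high libraries. The 3 populations did not overlap in this share. Mmp9 alone held 13.8% ± 1.85 in Ly6G-low, 24.8% ± 1.97 in T1-binding Ly6G-high and 46.2% ± 1.04 in T1-non-binding Ly6G-high libraries (SD, n = 2 each). Mmp12 held 35.0% ± 2.48 and 36.0% ± 6.51 in the Ly6G-low and the T1-binding Ly6G-high population and 17.6% ± 3.61 in the T1-non-binding one, and Mmp13 held 17.8% ± 4.91, 16.7% ± 1.04 and 7.32% ± 0.224 in the same order (SD, n = 2 each). In the Mmp12 share the T1-binding populations differed by less than the SD of either. For the Mmp13 share the difference was below the Ly6G-low SD but not below that of the T1-binding Ly6G-high libraries. The levels of both genes differed between these populations. Mmp14 held 25.0% ± 1.80 of the Ly6G-low MMP sum, 9.10% ± 2.01 in T1-binding Ly6G-high and 7.04% ± 2.84 in T1-non-binding Ly6G-high libraries (SD, n = 2 each).

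Inhibitor transcripts outweighed protease transcripts in the Ly6G-low libraries. The summed TIMP FPKM divided by the summed MMP FPKM was 5.44 and 4.03 there, against 0.296 and 0.610 in T1-binding Ly6G-high and 0.427 and 1.04 in T1-non-binding Ly6G-high libraries. The Ly6G-low libraries lay above the other 4, and the Ly6G-high populations overlapped. The sums behind the ratio were 1552 and 1199 TIMP FPKM over 285 and 297 MMP FPKM in Ly6G-low, 322 and 443 over 1090.3 and 727 in T1-binding Ly6G-high and 309 and 546 over 724 and 528 in T1-non-binding Ly6G-high libraries. Timp1 supplied 84.6% and 81.9% of the Ly6G-low TIMP sum, and without it the mean ratio was 0.784 in Ly6G-low, 0.161 in T1-binding Ly6G-high and 0.208 in T1-non-binding Ly6G-high cells. Timp1 over Mmp9, whose proenzyme is known to bind TIMP1, was 30.5 and 26.5 in Ly6G-low, 0.721 and 1.59 in T1-binding Ly6G-high and 0.582 and 1.70 in T1-non-binding Ly6G-high libraries. Timp2 over Mmp14, partners at the cell surface, was 3.18 and 3.07 in Ly6G-low, 1.65 and 1.84 in T1-binding Ly6G-high and 3.03 and 2.90 in T1-non-binding Ly6G-high libraries. Unlike the other ratios, this one separated the T1-binding Ly6G-high libraries from the remaining 4. These are ratios of RNA and were not tested. FPKM divide by gene length, and Timp1 was the shortest of the 10 genes, at 883 bases against 2453 to 4722 bases, which raises its weight in the ratio. The MMP sum leaves out Mmp3, at 31.6 and 51.4 FPKM in the Ly6G-low libraries.

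**Figure D2:**
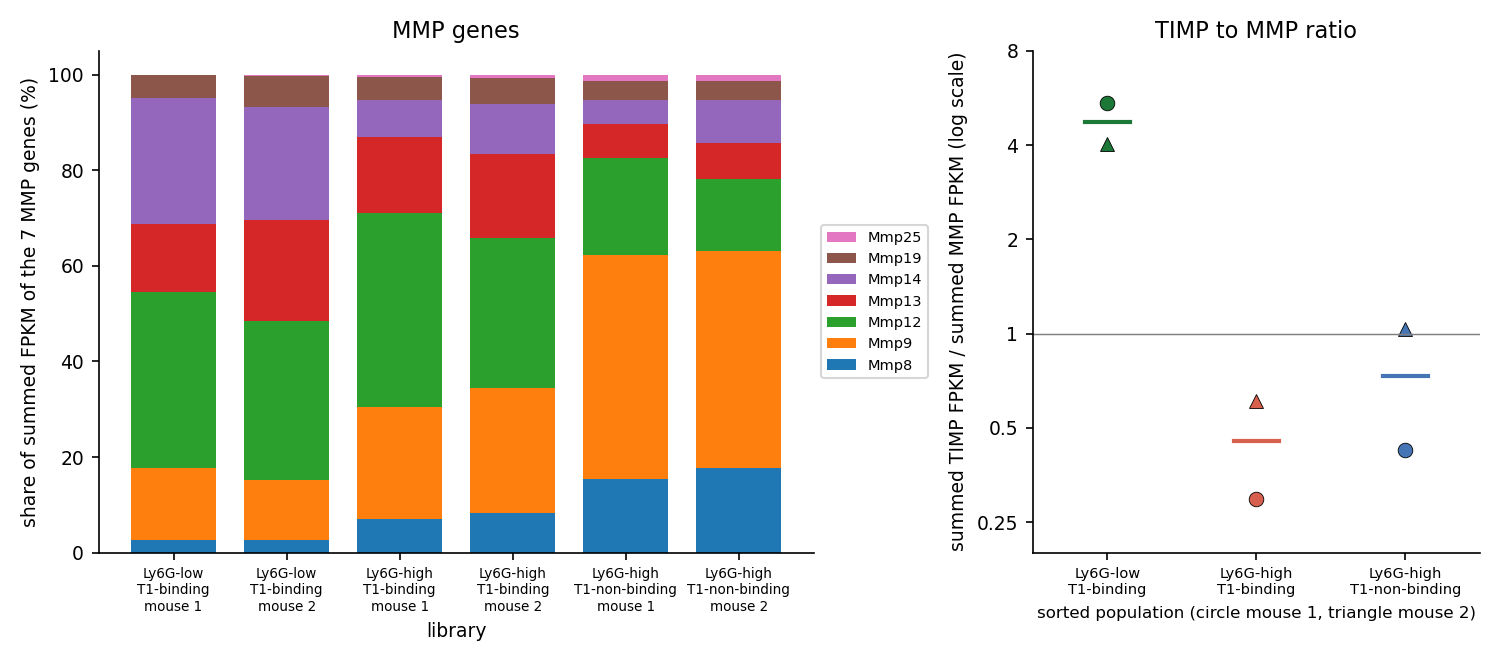
Left, stacked bars give the share (%) of each MMP gene in the summed FPKM of the 7 MMP genes for each library. Right, summed TIMP FPKM over summed MMP FPKM on a log axis, with points for libraries, lines for means of 2 and a grey line at 1; Ly6G-low libraries stood at 5.44 and 4.03 and 3 of the 4 Ly6G-high libraries stood below 1.

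Ly6G-low cells were first set against Ly6G-high cells among the T1-binding sorts, to compare aptamer-bound cells by their Ly6G level. All 7 MMP genes were lower in Ly6G-low cells and 2 of the 3 TIMP genes, Timp1 and Timp3, were higher, so that 9 of the 10 genes passed the edgeR quasi-likelihood test at a Benjamini-Hochberg adjusted p below 0.05. Of all 13883 genes tested, 43% passed in this comparison, 18.8% higher and 24.3% lower. Ranges of scaled CPM did not overlap for the same 9 genes, 2 above and 7 below, against 41.6% of all genes above and 39.6% below. The median log2 fold change of the 10 genes was -2.12, beside 0.03 over all genes tested. In sorted bulk RNA, fewer cells of a type and less RNA per cell cannot be told apart.

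The granule proteases showed the largest differences. Mmp8, the neutrophil collagenase, had 13.5 and 14.2 CPM in Ly6G-low libraries, against 219.7 and 147 CPM in T1-binding Ly6G-high libraries, and was 13.2-fold lower (log2 fold change -3.72 ± 0.34 SE, adjusted p = 0.00257). Mmp9, the gelatinase stored in neutrophil granules, had 97.9 and 84.9 CPM in Ly6G-low libraries, against 945 and 602 CPM in T1-binding Ly6G-high libraries, and was 8.46-fold lower (-3.08 ± 0.43, adjusted p = 0.00365). Mmp25, a membrane-anchored leukocyte MMP, had 1.18 and 2.49 CPM in Ly6G-low libraries, against 23.5 and 16.5 CPM in T1-binding Ly6G-high libraries, and was 10.8-fold lower (-3.44 ± 0.48, adjusted p = 0.00374). None of these ranges overlapped. All 9 neutrophil markers tested were also lower in Ly6G-low cells, and the part of neutrophil content in these differences was not tested. These 3 genes passed the test whichever of the 6 libraries was left out, with Mmp25 at -4.15 without the Ly6G-low library of mouse 2.

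Mmp12, the macrophage metalloelastase, had 336 and 319 CPM in Ly6G-low libraries, against 2309.8 and 1018 CPM in T1-binding Ly6G-high libraries, 5.08-fold lower (-2.35 ± 0.56, adjusted p = 0.0166). Mmp13, the main interstitial collagenase of rodents, had 78.2 and 122 CPM in Ly6G-low libraries, against 542 and 337 CPM in T1-binding Ly6G-high libraries, 4.39-fold lower (-2.13 ± 0.41, adjusted p = 0.00783). For Mmp19, a secreted MMP that cuts basement membrane proteins, the values were 33.4 and 46.3 CPM in Ly6G-low libraries, against 207 and 136 CPM in T1-binding Ly6G-high libraries, 4.30-fold lower (-2.10 ± 0.37, adjusted p = 0.00650). Mmp14, the membrane-type MMP, fell least, with 139 and 132 CPM in Ly6G-low libraries, against 253 and 198 CPM in T1-binding Ly6G-high libraries, 1.66-fold lower (-0.73 ± 0.20, adjusted p = 0.0250). Both Ly6G-low libraries lay below both Ly6G-high ones for each of these 4 genes. The 9 macrophage markers, all of them called lower, summed to 1699 and 3346 CPM in Ly6G-low libraries, against 10594 and 11313 CPM in T1-binding Ly6G-high libraries, and their part in these differences was not tested. Mmp12 lost its call without the Ly6G-low library of mouse 1 (adjusted p = 0.0916) or of mouse 2 (0.0715) and, with the log2 fold change at -1.64, without the Ly6G-high library of mouse 1 (0.0773), and Mmp14 lost it without the same 3 libraries (0.139, 0.117 and 0.162). Mmp13 and Mmp19 lost it without the Ly6G-low library of mouse 1 (0.0620 and 0.0524).

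Of the inhibitors, 2 were higher and 1 was not called. Timp1, a broad secreted inhibitor, had 831 and 625 CPM in Ly6G-low libraries, against 189 and 266 CPM in T1-binding Ly6G-high libraries, and was 3.20-fold higher (1.68 ± 0.32, adjusted p = 0.00759). Timp3 rested on 112 and 60 counts in Ly6G-low libraries, against 12 and 21 counts in T1-binding Ly6G-high libraries, and was 3.73-fold higher in scaled CPM (1.90 ± 0.49, adjusted p = 0.0208). Both genes were higher in each Ly6G-low library than in either Ly6G-high one. Timp2 had 633 and 579 CPM in Ly6G-low libraries, against 598 and 521 CPM in T1-binding Ly6G-high libraries, ranges that overlapped, with a log2 difference of 0.12 ± 0.24 (adjusted p = 0.709). The 8 fibroblast markers summed to 1462 and 1192 CPM in Ly6G-low libraries, against 503 and 781 CPM in T1-binding Ly6G-high libraries, with Col1a2, Pdgfra and Pdgfrb called higher, Acta2 called lower and no marker at 0 in any population, and their part in the Timp1 and Timp3 values was not tested. The 7 tumour and epithelial markers summed to 132 and 116 CPM in Ly6G-low libraries, against 76.1 and 80.0 CPM in T1-binding Ly6G-high libraries, where Cldn4 was at 0, with Krt18 called higher (1.15, adjusted p = 0.0164), Cdh1 called lower (-2.30, adjusted p = 0.0305) and Krt8 and Epcam not called, and their part was not tested either. Of the 6 endothelial markers, Tek had 15 and 7 counts in Ly6G-low libraries, against 0 and 0 in T1-binding Ly6G-high libraries, and Emcn had 29 and 14, against 2 and 0, both called higher (adjusted p = 0.0272 and 0.0196). Pecam1 and Kdr of that list were called lower, its sum was 13.1 and 11.96 CPM in Ly6G-low libraries, against 75.3 and 49.5 CPM in T1-binding Ly6G-high libraries, and its part in the Timp3 value was not tested. Without the Ly6G-low library of mouse 1 or the Ly6G-high library of mouse 1, the calls were lost for Timp1 and for Timp3. Calls over all genes also became fewer in these 2 fits. Over the 6 left-out libraries the log2 fold change ran from 1.45 to 1.85 for Timp1 and from 1.33 to 2.25 for Timp3.

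**Figure D3:**
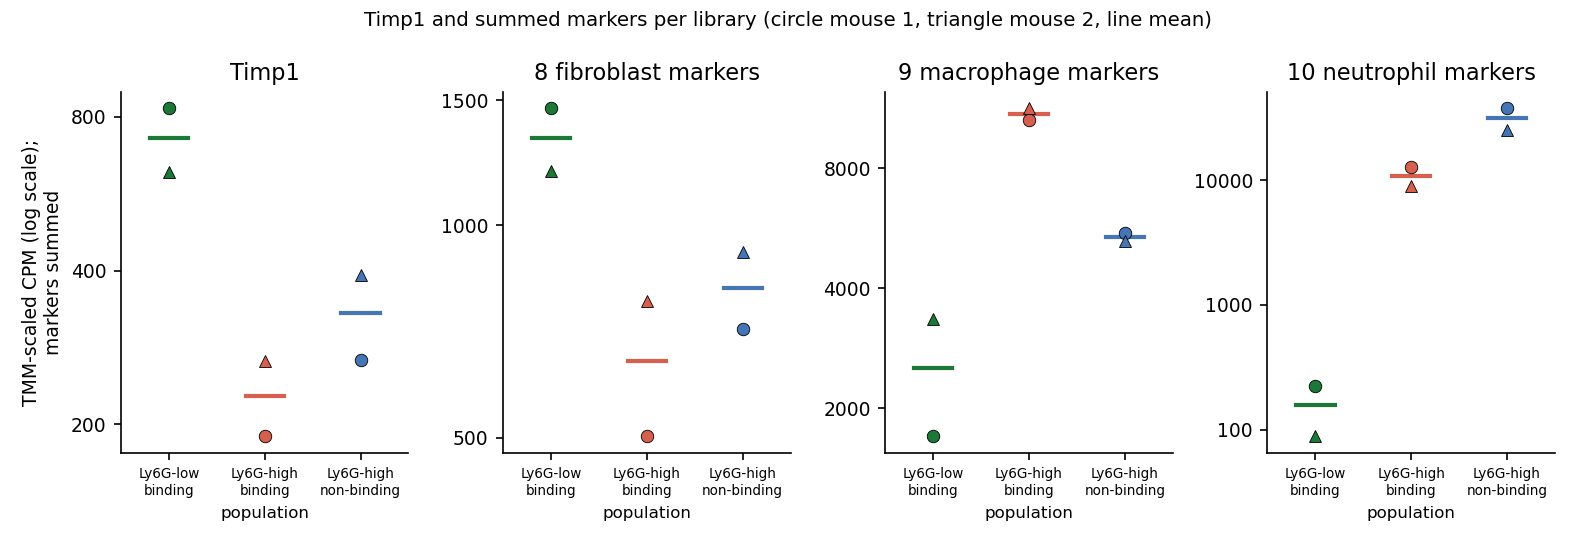
Timp1 and the summed fibroblast, macrophage and neutrophil markers in TMM-scaled CPM on log axes, for Ly6G-low T1-binding, Ly6G-high T1-binding and Ly6G-high T1-non-binding cells from left to right (points, libraries; lines, means of 2). Timp1 (831 and 625 CPM) and the fibroblast sum (1462 and 1192 CPM) were highest in Ly6G-low libraries, the macrophage sum was highest in T1-binding Ly6G-high libraries and the neutrophil sum in T1-non-binding ones.

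The scale chosen mattered for the genes of small difference. TMM factors were 1.40 and 1.39 in Ly6G-low, 0.858 and 1.00 in T1-binding Ly6G-high and 0.653 and 0.917 in T1-non-binding Ly6G-high libraries. Scaling by library totals in place of TMM moved the median log2 fold change of all genes by 0.58 for Ly6G-low against T1-binding Ly6G-high, by 0.83 for Ly6G-low against T1-non-binding Ly6G-high and by 0.25 between the Ly6G-high populations. In the first of these comparisons the lower share among called genes was 56.4% with TMM and 30.0% with library totals, and in the second it was 59.7% and 20.6%. On that scale Mmp14 was no longer called in Ly6G-low against T1-binding Ly6G-high cells (-0.14, adjusted p = 0.604) and Timp2 was called higher (0.70, adjusted p = 0.0322), while the other 8 genes kept their directions and calls. The deposited FPKM follow library totals, and on that scale Timp2 was higher in both Ly6G-low libraries, while its TMM-scaled CPM overlapped.

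**Figure D4:**
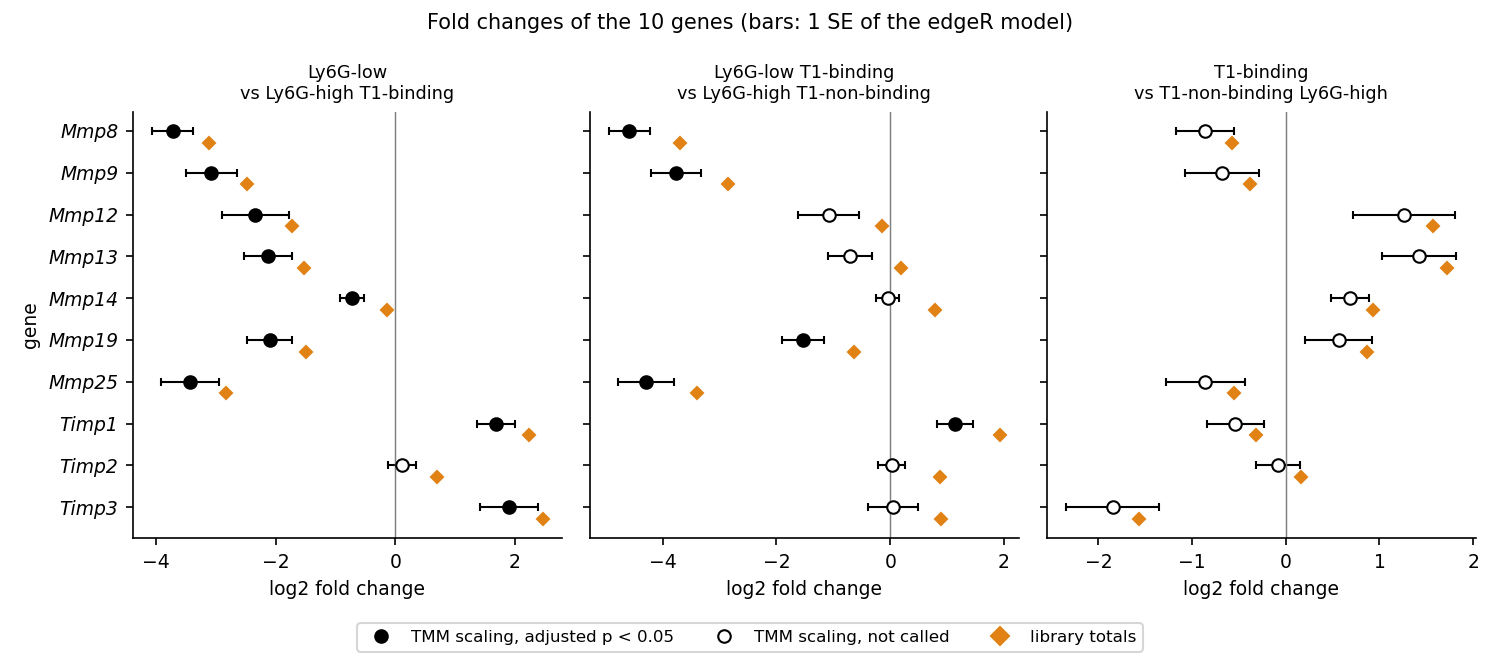
Log2 fold changes of the 10 genes for Ly6G-low over T1-binding Ly6G-high, Ly6G-low over T1-non-binding Ly6G-high, and T1-binding over T1-non-binding Ly6G-high cells (circles with bars of 1 SE, edgeR with TMM; filled, adjusted p below 0.05; diamonds, library totals). Of the 10 genes, 9, 5 and 0 are filled in the 3 panels, and the diamonds lie to the right of the circles.

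Against the T1-non-binding Ly6G-high cells, which shares the Ly6G-low libraries with the comparison above, 5 of the 10 genes were called in Ly6G-low cells, 4 lower and 1 higher. Of all genes tested 39.8% were called, 16.1% higher and 23.8% lower, and the median log2 fold change was -0.90 for the 10 genes and 0.09 for all genes. The Ly6G-low range lay above the other for 1 gene and below it for 5, against 43.6% and 36.6% of all genes. Mmp8 had 13.5 and 14.2 CPM in Ly6G-low libraries, against 417 and 249 CPM in T1-non-binding Ly6G-high libraries, and was 24.0-fold lower (-4.58 ± 0.36, adjusted p = 0.000799). Mmp9 had 97.9 and 84.9 CPM in Ly6G-low libraries, against 1653 and 831 CPM in T1-non-binding Ly6G-high libraries, and was 13.6-fold lower (-3.76 ± 0.44, adjusted p = 0.00195). For Mmp25 the values were 1.18 and 2.49 CPM in Ly6G-low libraries, against 48.9 and 23.8 CPM in T1-non-binding Ly6G-high libraries, 19.6-fold lower (-4.29 ± 0.49, adjusted p = 0.00187). No range of the 3 granule proteases overlapped, and they were called whichever library was left out, Mmp25 at -4.94 without the Ly6G-low library of mouse 2 and -3.69 without the T1-non-binding library of mouse 1. The 9 neutrophil markers tested were again all lower, and their part was not tested.

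Of the other MMP genes only Mmp19 was called, at 33.4 and 46.3 CPM in Ly6G-low libraries, against 152 and 79.4 CPM in T1-non-binding Ly6G-high libraries, 2.91-fold lower (-1.54 ± 0.37, adjusted p = 0.0194). Mmp12 had 336 and 319 CPM in Ly6G-low libraries, against 999.9 and 388 CPM in T1-non-binding Ly6G-high libraries, a log2 difference of -1.08 ± 0.54 that did not pass (adjusted p = 0.142) although the ranges did not overlap. With mouse as a block on those 4 libraries Mmp12 passed at -0.98 (adjusted p = 0.0425, with 36% of all genes called), with DESeq2 it passed at -1.15 (adjusted p = 0.0398), and without the T1-non-binding library of mouse 2 it passed at -1.61 (adjusted p = 0.0318). Mmp13 had 78.2 and 122 CPM in Ly6G-low libraries, against 212 and 115 CPM in T1-non-binding Ly6G-high libraries, ranges that overlapped (-0.71 ± 0.39, adjusted p = 0.176). Mmp14 was at 139 and 132 CPM in Ly6G-low libraries, against 145 and 135 CPM in T1-non-binding Ly6G-high libraries (-0.05 ± 0.20, adjusted p = 0.860). The macrophage sum was 1699 and 3346 CPM in Ly6G-low libraries, against 5519 and 5242 CPM in T1-non-binding Ly6G-high libraries. Of its 9 markers 8 lay below without overlap and 3 were called lower, beside 36.6% and 23.8% of all genes. The part of these markers in the MMP values was not tested. The Mmp14 difference turned on the scale, since with library totals it was 0.79 (adjusted p = 0.0163), below the 0.83 by which the median of all genes moved. Mmp19 lost its call with library totals (-0.64, adjusted p = 0.0660), without the Ly6G-low library of mouse 1 (0.122) and without the T1-non-binding library of mouse 1 (0.0681).

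Timp1 was 2.21-fold higher in Ly6G-low cells, at 831 and 625 CPM, against 268 and 392 CPM in T1-non-binding Ly6G-high libraries (1.14 ± 0.31, adjusted p = 0.0288), with no overlap. Timp2 had 633 and 579 CPM in Ly6G-low libraries, against 627 and 560.0 CPM in T1-non-binding Ly6G-high libraries (0.03 ± 0.24, adjusted p = 0.924), and with library totals it was called at 0.87 (adjusted p = 0.0119). Timp3 had 3.40 and 1.73 CPM in Ly6G-low libraries, against 2.85 and 2.14 CPM in T1-non-binding Ly6G-high libraries (0.05 ± 0.45, adjusted p = 0.931). Of the 6 endothelial markers the Ly6G-low range lay below for 4 and above for 1, beside 36.6% and 43.6% of all genes. Pecam1 and Kdr were called lower, and the part of that list in the Timp3 value was not tested. Of the 8 fibroblast markers 3 were called higher and 1 lower here too, with sums of 1462 and 1192 CPM in Ly6G-low libraries, against 712 and 917 CPM in T1-non-binding Ly6G-high libraries, and their part in the Timp1 value was not tested. The Timp1 call was lost without either Ly6G-low library and without the T1-non-binding library of mouse 1. Its log2 fold change ran from 0.89 to 1.45 over the left-out libraries. Without the mouse 1 library of either population, calls over all genes also became fewer.

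Within the Ly6G-high gate, T1-binding cells were set against T1-non-binding cells, to compare cells of the polymorphonuclear gate by aptamer binding. The T1-binding and the T1-non-binding libraries each also served in one of the comparisons above. In both mice the values of Mmp12, Mmp13, Mmp14 and Mmp19 were higher and those of the other 6 genes lower in T1-binding cells, but by the test across all 6 libraries none of the 10 genes was called, and of all 13883 genes 0% were called. At an unadjusted p below 0.05 stood 4 of the 10 genes, Mmp8, Mmp13, Mmp14 and Timp3, against 11.7% of all genes, and limma-voom called none while DESeq2 called Mmp13 alone of the 10 (1.40, adjusted p = 0.0266) and 203 genes in all, 1.46%.

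Mmp13 had 542 and 337 CPM in T1-binding Ly6G-high libraries, against 212 and 115 CPM in T1-non-binding Ly6G-high libraries, a log2 difference of 1.42 ± 0.40 (adjusted p = 0.385). Mmp12 had 2309.8 and 1018 CPM in T1-binding libraries, against 999.9 and 388 CPM in T1-non-binding libraries (1.26 ± 0.54, adjusted p = 0.435). Mmp14 had 253 and 198 CPM in T1-binding libraries, against 145 and 135 CPM in T1-non-binding libraries (0.69 ± 0.20, adjusted p = 0.385). For these 3 genes both T1-binding libraries lay above both T1-non-binding ones, as for 20.1% of all genes. For Mmp12 the lower T1-binding value (1018, mouse 2) was close to the higher T1-non-binding value (999.9, mouse 1). Mmp19 had 207 and 136 CPM in T1-binding libraries, against 152 and 79.4 CPM in T1-non-binding libraries, ranges that overlapped (0.56 ± 0.36, adjusted p = 0.552). The macrophage sum was 10594 and 11313 CPM in T1-binding libraries, against 5519 and 5242 CPM in T1-non-binding libraries, with 8 of 9 markers not overlapping, and its part in these values was not tested.

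Mmp8 had 219.7 and 147 CPM in T1-binding libraries, against 417 and 249 CPM in T1-non-binding libraries (-0.86 ± 0.31, adjusted p = 0.396). Mmp25 had 23.5 and 16.5 CPM in T1-binding libraries, against 48.9 and 23.8 CPM in T1-non-binding libraries (-0.86 ± 0.42, adjusted p = 0.464). For Mmp9 the values were 945 and 602 CPM in T1-binding libraries, against 1653 and 831 CPM in T1-non-binding libraries, with overlap (-0.68 ± 0.40, adjusted p = 0.518). The neutrophil sum was 12657 and 8997 CPM in T1-binding libraries, against 37481 and 24970 CPM in T1-non-binding libraries, and its part was not tested. Timp1 had 189 and 266 CPM in T1-binding libraries, against 268 and 392 CPM in T1-non-binding libraries (-0.54 ± 0.31, adjusted p = 0.516). Timp3 had 0.503 and 0.865 CPM in T1-binding libraries, against 2.85 and 2.14 CPM in T1-non-binding libraries, from 12 and 21 counts against 44 and 55 counts (-1.85 ± 0.50, adjusted p = 0.385). Of the 6 endothelial markers 3 were also lower in both T1-binding libraries than in either T1-non-binding one. They were Cdh5, Tek (0 and 0 counts in T1-binding libraries, against 8 and 31) and Emcn (2 and 0 counts, against 29 and 40). Ranges overlapped for Kdr and Egfl7, with positive log2 fold changes (0.34 and 0.54), and for Pecam1 (-0.57). The sum of that list overlapped too, at 75.3 and 49.5 CPM in T1-binding libraries, against 117 and 63.1 CPM in T1-non-binding libraries. The part of these markers was not tested. Timp2 had 598 and 521 CPM in T1-binding libraries, against 627 and 560.0 CPM in T1-non-binding libraries, with overlap (-0.09 ± 0.24, adjusted p = 0.907). Mmp8, Mmp25, Timp1 and Timp3 were the 4 genes with both T1-binding libraries below both T1-non-binding ones, as were 19.1% of all genes.

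Since both populations came from the same 2 mice, the ratio could also be taken within a mouse. Its sign was the same in both mice for all 10 genes, beside 70.7% of all genes tested, and for Timp2 the ratio was near 0. Within mouse 1 and mouse 2 the log2 ratio of T1-binding to T1-non-binding CPM, each raised by 0.5, was 1.35 and 1.55 for Mmp13, 1.21 and 1.39 for Mmp12, 0.80 and 0.54 for Mmp14 and 0.44 and 0.77 for Mmp19. It was -0.92 and -0.76 for Mmp8, -0.81 and -0.47 for Mmp9, -1.04 and -0.52 for Mmp25, -0.50 and -0.56 for Timp1 and -1.74 and -0.95 for Timp3. For Timp2 it was -0.07 and -0.10. An edgeR fit with mouse as a block on the 4 Ly6G-high libraries, with 1 residual degree of freedom of its own, called 9 of the 10 genes, beside 28.2% of all 13419 genes it tested. The p-values of that fit draw on a spread estimated across genes, so their small size does not measure the spread between the 2 mice. Higher in that fit were Mmp12 (1.35, adjusted p = 4.6e-13), Mmp13 (1.50, adjusted p = 3.5e-14), Mmp14 (0.73, adjusted p = 2.4e-07) and Mmp19 (0.66, adjusted p = 1.1e-06). Lower in it were Mmp8 (-0.79, adjusted p = 1.1e-08), Mmp9 (-0.59, adjusted p = 8.0e-06), Mmp25 (-0.75, adjusted p = 2.4e-05), Timp1 (-0.48, adjusted p = 8.8e-05) and Timp3 (-1.80, adjusted p = 0.00194). With the same block on all 6 libraries 0 of the 10 genes and 0 of all genes were called, so the calls depended on which libraries entered the fit.

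**Figure D5:**
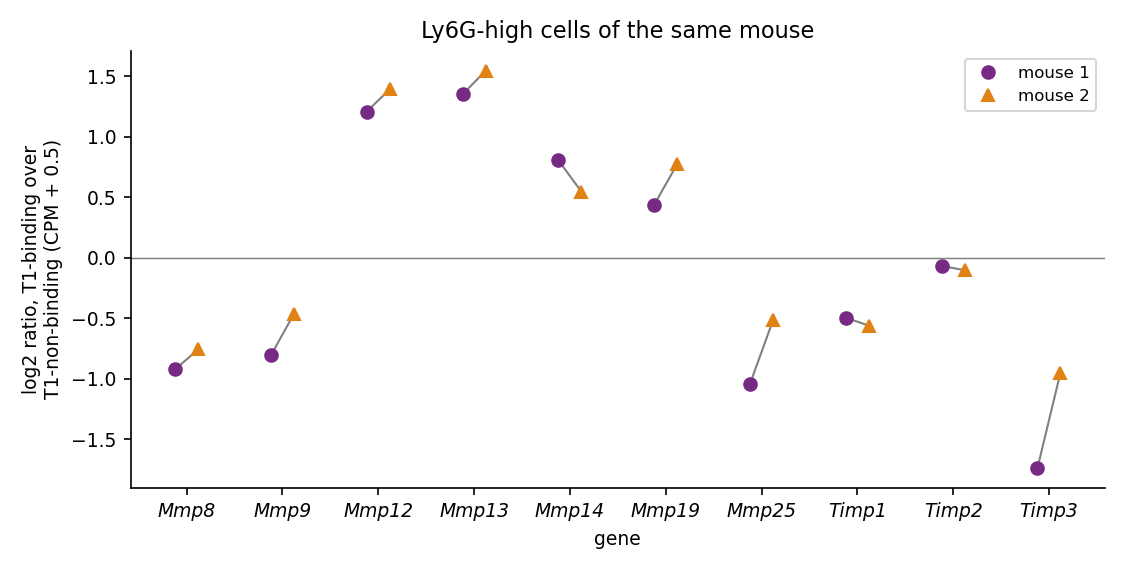
Log2 ratio of T1-binding to T1-non-binding Ly6G-high cells taken within mouse 1 (circles) and mouse 2 (triangles), from TMM-scaled CPM raised by 0.5, for each of the 10 genes. Mmp12, Mmp13, Mmp14 and Mmp19 lie above 0 in both mice and the other 6 genes lie below it.

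The 2 mice also differed from each other within a population. All 7 MMP genes had higher scaled CPM in mouse 1 than in mouse 2 in T1-binding Ly6G-high and in T1-non-binding Ly6G-high cells, but 3 of 7 did so in Ly6G-low cells. Of all genes tested, 49% were higher in mouse 1 in T1-binding Ly6G-high cells, 55.6% in T1-non-binding Ly6G-high cells, 39.9% in both and 48.1% in Ly6G-low cells. The leukocyte and neutrophil marker sums given above were also higher in mouse 1 in both Ly6G-high populations, while in Ly6G-low cells the neutrophil sum was higher in mouse 1 and the leukocyte sum in mouse 2, and their part was not tested. Timp1 was higher in mouse 2 in both Ly6G-high populations and higher in mouse 1 in Ly6G-low cells. On the FPKM scale the MMP counts were 3 of 7 in Ly6G-low, 7 of 7 in T1-binding Ly6G-high and 6 of 7 in T1-non-binding Ly6G-high cells. With 1 library for each mouse and population this difference has no replicate.

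Across the 3 populations the TMM-scaled levels gave 3 orders. Mmp8 averaged 13.9 ± 0.515 CPM in Ly6G-low, 183 ± 51.3 in T1-binding Ly6G-high and 333 ± 119 in T1-non-binding Ly6G-high cells, and Mmp9 and Mmp25 had the same order, in which the 2 Ly6G-high neighbours were not called apart (SD, n = 2 each). Mmp12 averaged 327 ± 12.2 CPM in Ly6G-low, 1664 ± 914 in T1-binding Ly6G-high and 694 ± 433 in T1-non-binding Ly6G-high cells, and Mmp13, Mmp14 and Mmp19 also had their highest mean in the T1-binding Ly6G-high population (SD, n = 2 each). Timp1 averaged 728 ± 146 CPM in Ly6G-low, 228 ± 53.8 in T1-binding Ly6G-high and 330.1 ± 88.1 in T1-non-binding Ly6G-high cells, with the highest mean in the population where all 7 MMP genes had their lowest, although with library totals Mmp13 and Mmp14 were lowest in T1-non-binding Ly6G-high cells (SD, n = 2 each). Over the 6 libraries Pearson's r of log2 CPM was 0.996 between Mmp8 and Mmp9, 0.988 between Mmp8 and Mmp25, 0.958 between Mmp12 and Mmp13 and -0.997 between Mmp19 and Timp1, a description of 6 points that share mice and populations. Of 12259 other genes compared, those most like Mmp8 were Ccl4, Il1rn and Samsn1, those most like Mmp9 included Btg3 and Chrm3, and those most like Mmp25 were Reps2, Cdyl and Bin2. Most like Mmp12 were Arhgef10l, Tubb6 and F13a1, most like Mmp13 were Trpv4, Nus1 and Tex2, most like Mmp19 were Tank, B4galt5 and Ube2q1, and most like Mmp14 were Nid2, Chpf2 and Mr1. Timp1 was matched most closely by Glrp1, Tm4sf1 and Mdh2, Timp2 by P2rx1, Ndfip1 and Ppp2r2a and Timp3 by Sirt4, Sgpp2 and Ramp2. Each of these had an r of 0.986 or more. At a looser cut, an r above 0.9, likeness was common for some members, with 2225 genes for Mmp8 and 2296 for Timp1. For others fewer genes passed that cut, 228 for Mmp14, 98 for Timp3 and 41 for Timp2.

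Among the other MMP and TIMP genes, Mmp3 was more abundant per length in both Ly6G-low libraries than Mmp8, Mmp19 and Mmp25. Of 17 further family genes 6 were abundant enough to test, and Mmp1a, Mmp1b, Mmp7 and Mmp20 had 0 counts in all 6 libraries, which allows at most 0.0867 to 0.194 CPM per library. Mmp3, the stromelysin that can activate other proMMPs, was the most abundant of them, at 31.6 and 51.4 FPKM in Ly6G-low, 10.4 and 40.3 FPKM in T1-binding Ly6G-high and 12.4 and 25.0 FPKM in T1-non-binding Ly6G-high libraries, and it was called in no comparison. Mmp11, known from tumour stroma, was the only one called, in Ly6G-low against T1-binding Ly6G-high cells. This was 1 of 6 tested, beside 43% of all genes called and 18.8% called higher. It had 13.3 and 11.2 CPM in Ly6G-low libraries, against 4.94 and 6.30 CPM in T1-binding Ly6G-high libraries (1.12 ± 0.34, adjusted p = 0.0342). The Mmp11 call was lost without either Ly6G-low library or without the T1-binding Ly6G-high library of mouse 1. Mmp2, the gelatinase that the Mmp14 protein activates, had 4.50 and 3.18 CPM in Ly6G-low, 2.97 and 3.87 CPM in T1-binding Ly6G-high and 1.88 and 5.40 CPM in T1-non-binding Ly6G-high libraries, with all ranges overlapping.

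Of 20 activators, inhibitors and partners of MMPs, 16 were tested. In Ly6G-low against T1-binding Ly6G-high cells 8 were lower and 1 was higher, 9 of 16 beside 43% of all genes, and the median log2 fold change was -1.26 in the list and 0.03 over all genes. Lcn2, whose protein forms a complex with MMP9 in neutrophils, fell by 3.56 on the log2 scale (adjusted p = 0.00218), and Plaur, the receptor of urokinase, fell by 2.86 (adjusted p = 0.00503). Plau, urokinase itself, fell by 1.92 (adjusted p = 0.00443) and Thbs1, a matrix protein that binds proMMPs, fell by 2.98 (adjusted p = 0.00482). Against T1-non-binding Ly6G-high cells 8 were again lower and 1 higher, beside 39.8% of all genes, with a median of -0.96 in the list and 0.09 over all genes, and those that fell included Lcn2 (-5.12, adjusted p = 0.000551), Plaur (-3.68, adjusted p = 0.00256), Thbs1 (-3.03, adjusted p = 0.00477) and Cd44, a surface anchor for MMP9 (-1.80, adjusted p = 0.0146). Between the Ly6G-high populations none was called, and the smallest p-values belonged to Lcn2 (-1.55 ± 0.24) and Serpine2, a serpin (-1.82 ± 0.37), each at an adjusted p of 0.385. In Ly6G-low against T1-binding Ly6G-high cells fewer were called without the mouse 1 library of the Ly6G-low or the Ly6G-high population. Against T1-non-binding Ly6G-high cells fewer were called without either Ly6G-low library or the T1-non-binding library of mouse 1. Calls over all genes also became fewer without these mouse 1 libraries.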

How the data were processed

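RNA-seq of sorted myeloid cells was analysed in 6 libraries, grouped by sample title, with the mouse taken from the source labels. The authors deposited 2 values per gene, whole-number read counts without normalization and FPKM values. In the deposited tables FPKM equals the count over gene length and library total (largest relative deviation 9.3e-12 over 14684 genes). Per the submitters' processing notes, the tools were HTSeq 0.6.1, STAR 2.5 and TopHat and the build was mm10. Strandedness and the annotation release are not given in the sources used here.

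In R 4.3.3, filterByExpr kept 13883 genes, and edgeR 4.0.16 with TMM factors and its robust quasi-likelihood F test was fitted to the 6 libraries with group means only, leaving 3 residual degrees of freedom. Benjamini-Hochberg adjustment ran over all tested genes, with a threshold of 0.05. SE is the absolute log2 fold change over the square root of F. Likeness used log2 CPM with a prior count of 2, and the 3 genes with the highest r, passing over predicted genes and clone names, were named. Of the wider lists, up to 4 called genes per direction with the smallest p were named, and all 10 MMP and TIMP genes were given in each of the 3 comparisons. Some genes that these rules name are not reported here by name, although the counts include them. The members and lists were chosen with earlier results of these data known.

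The mice pair the libraries, since same-numbered libraries came from the same animal. Deviations from group means correlated across 13883 genes at 0.514 between the Ly6G-high populations of a mouse. For Ly6G-low cells the correlation was -0.00583 with T1-binding and -0.0431 with T1-non-binding Ly6G-high cells. Alternatives were RLE factors, library totals, DESeq2 1.42.0, limma-voom (limma 3.58.1), no filter, the compared groups alone, mouse as a block in either set of libraries, and each library left out. Limits for 0 counts (3 counts per library) cover counting error only. The steps were tested on simulated data.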

Additional observations from a re-analysis of the deposited data

How the results depend on the processing

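Between T1-binding and T1-non-binding Ly6G-high cells the call depended on the fit. Of all genes 0 were called with TMM and edgeR, 203 with DESeq2, 71 without a filter and 3778 with the replicate block (mouse) on those 4 libraries, and of the 10 genes 0, 1, 0 and 9. The block changed no call in Ly6G-low against T1-binding Ly6G-high cells, and against T1-non-binding Ly6G-high cells that of Mmp12 alone. With library totals 9146 genes were called there. With a library left out, which leaves 1 library assumed to vary like the others, 1972 to 6731 genes and 3 to 9 of the 10 were called in Ly6G-low against T1-binding Ly6G-high cells, and 1527 to 6282 genes and 3 to 6 of the 10 against T1-non-binding Ly6G-high cells. Signs turned for differences near 0. Timp2 turned with library totals between the Ly6G-high populations (0.17), where leaving out libraries gave -0.19 to 0.066, and leaving out libraries gave it -0.073 to 0.22 in Ly6G-low against T1-binding Ly6G-high cells. Against T1-non-binding Ly6G-high cells, library totals turned Mmp13 (0.19) and Mmp14 (0.79), and Timp2 turned with RLE (-0.039), DESeq2 (-0.039), the compared groups alone (-0.020) and the replicate block on them (-0.022). Timp3 turned there with RLE (-0.017), DESeq2 (-0.019) and that block (-0.072). With libraries left out Mmp14 ran from -0.093 to 0.000226, Timp2 from -0.048 to 0.11 and Timp3 from -0.52 to 0.43. The share of Mmp12 from CPM without length was 46.1% in Ly6G-low and 46.4% in T1-binding Ly6G-high cells. Without Timp1 the TIMP to MMP ratio was 0.784 in Ly6G-low, 0.161 in T1-binding Ly6G-high and 0.208 in T1-non-binding Ly6G-high cells. The causes were not tested. Of 140 recomputed log2 fold changes of the 10 genes in Ly6G-low against T1-binding Ly6G-high cells, 125 kept direction and side of the threshold, 115 of 140 did so against T1-non-binding Ly6G-high cells, and 127 of 139 did so between the Ly6G-high populations. In the last comparison keeping the side meant staying uncalled, including in fits that called 0 of all genes, so that count says little about the 10 genes. With 2 mice, a lost call says little about the size of a difference.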

Other observations

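Related metalloproteinases of the ADAM and ADAMTS families, which cut surface proteins and proteoglycans, were divided in Ly6G-low cells. Of 16 genes listed 13 were tested, and in Ly6G-low against T1-binding Ly6G-high cells 6 were lower and 3 higher, beside 24.3% of all genes lower and 18.8% higher, and the median log2 fold change was -0.28 in the list and 0.03 over all genes. Adam8, a leukocyte ADAM, had 199 and 217 CPM in Ly6G-low libraries, against 2176 and 1293 CPM in T1-binding Ly6G-high libraries, 8.34-fold lower (edgeR log2 fold change -3.06 ± 0.41, adjusted p = 0.00345). Adam19 was 12.7-fold lower (-3.67 ± 0.44, adjusted p = 0.00319), Adam15 2.26-fold lower (-1.18 ± 0.19, adjusted p = 0.00504) and Adam17, which sheds TNF from the cell surface, 3.43-fold lower (-1.78 ± 0.34, adjusted p = 0.00806). The higher genes were the aggrecan-cutting Adamts4 (1.75 ± 0.33, adjusted p = 0.00782), Adamts1 (1.37 ± 0.34, adjusted p = 0.0188) and Adam12 (1.57 ± 0.43, adjusted p = 0.0250). Fewer of these 9 calls remained without the Ly6G-low library of mouse 1 or the Ly6G-high library of mouse 1, with none of them higher. Calls over all genes also became fewer in these fits.

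Against T1-non-binding Ly6G-high cells 3 of the 13 were lower in Ly6G-low cells, Adam19 (-4.80 ± 0.46, adjusted p = 0.00122), Adam8 (-3.49 ± 0.42, adjusted p = 0.00208) and Adam17 (-1.89 ± 0.34, adjusted p = 0.00781), and 1 was higher, Adamts12 (2.69 ± 0.64, adjusted p = 0.0189), on 55 and 51 counts in Ly6G-low libraries against 3 and 7 counts. These 4 of 13 stand beside 39.8% of all genes called, a larger share, with a median of 0.01 in the list and 0.09 over all genes. The number called varied with the library left out. Without a filter or with library totals it was 7, beside 28.9% and 65.9% of all genes. Between T1-binding and T1-non-binding Ly6G-high cells none was called, and the smallest p-values were those of Adamts4 (-1.52 ± 0.34) and Adam15 (0.70 ± 0.19), each at an adjusted p of 0.385. The fibroblast, macrophage and neutrophil marker sums differed between the same libraries, and their part in these values was not tested.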
